A study of Mus musculus with 6 samples.

Results

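The 6 genes described here encode proteins that bind metal ions, the metallothioneins *Mt1*, *Mt2* and *Mt3*, the ferritin subunits *Ftl1* and *Fth1*, and the prion protein gene *Prnp*. They were found by gene symbol among the 41710 genes of the deposited library tables, and all 6 symbols were present. The set had been chosen by the measured exon reads of these libraries, in which most of its members were low in Trpm7R/R islets. Its genotype difference is therefore described below with no test of the members and supports nothing further.

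Metallothioneins are small cysteine-rich proteins that bind zinc and copper, and their genes are switched on when free zinc rises and the factor MTF1 binds metal response elements in their promoters. Ferritin is a hollow shell built of heavy (*Fth1*) and light (*Ftl1*) subunits. The heavy subunit oxidizes ferrous iron, and the light subunit helps to store it as a mineral core. The prion protein sits on the outer cell surface, binds copper through repeats near its amino terminus, and is best known from prion disease. Pancreatic beta cells pack zinc with insulin into their granules, and TRPM7 is a channel that conducts zinc, magnesium and calcium, fused to a kinase.

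Pancreatic islets of 3 WT mice and 3 Trpm7R/R mice were compared, with 1 library per mouse. Trpm7R/R mice are homozygous for a point mutation in *Trpm7* that inactivates the kinase and leaves the protein in place, in every cell of the body and not only in beta cells. Both groups were littermates on a C57BL/6 background, had received an obesogenic diet (HFD) with 45% of its calories from fat for 16 weeks from 8 weeks of age, and their islets were kept in culture medium after isolation. WT libraries are numbered 1, 2 and 3 and Trpm7R/R libraries 4, 6 and 8, as in their titles.

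Libraries held 17213285 to 20307909 mapped reads, of which 1312128 to 2135466 lay in exons. Between 75.7% and 84.2% of gene reads lay in introns. Reads that cross an exon-exon junction, which come from spliced RNA, made up 0.0917% to 0.194% of mapped reads in WT and 0.0348% to 0.0514% in Trpm7R/R, outside the mitochondrial chromosome and 11 predicted genes with very dense reads. The difference in spliced RNA runs in the same direction as the results below, and its part in them was not tested. Exon reads of islet endocrine markers were present in all libraries, though few for delta cells. The 8 alpha cell markers found had 113 to 288 exon reads per 1000000 mapped reads in WT and 30.7 to 66.2 in Trpm7R/R. The 5 delta cell markers had 7.91 to 15.0 in WT and 3.63 to 7.78 in Trpm7R/R. Exon-exon reads of the delta list were 15 to 23 in WT and 0 to 9 in Trpm7R/R. The 11 beta cell markers together had 914 to 2324 exon reads per 1000000 mapped reads in WT and 288 to 657 in Trpm7R/R, and the 2 PP cell markers had 141 to 242 in WT and 24.6 to 50.8 in Trpm7R/R. The 15 macrophage and leukocyte markers had 11.2 to 19.4 in WT and 8.02 to 18.7 in Trpm7R/R, and the 17 acinar markers had 11.6 to 17.1 in WT and 10.3 to 14.1 in Trpm7R/R. Of these 2 lists 0 genes were clearly expressed by the rule given below, so their exon sums cannot show whether such cells changed. Exon-exon reads were 20 to 58 in WT and 1 to 31 in Trpm7R/R for the acinar list. For the macrophage and leukocyte list they were 3 to 4 and 5 to 7. In bulk islets, fewer cells of a type and less RNA per cell cannot be told apart. Introns of Y-linked genes had 0.415 to 0.575 times the autosomal read density in WT and in Trpm7R/R replicate 4, and 0.0480 and 0.0344 times in Trpm7R/R replicates 6 and 8. Replicates 6 and 8 thus look female and the rest male, so values of replicate 4 are also given on their own.

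The metallothionein genes lie next to each other on chromosome 8. In GRCm38.p6 their RefSeq start sites are at 94137204 for *Mt4*, 94152607 for *Mt3*, 94172618 for *Mt2* and 94179089 for *Mt1*, so those of *Mt2* and *Mt1* are 6471 bases apart on the same strand. The promoters of *Mt1* and *Mt2* are shown because these neighbours had the most similar values of the set. The windows are the 250 bases before the start, chr8:94178839-94179088 for *Mt1* and chr8:94172368-94172617 for *Mt2*, both on the plus strand. Capitals mark the metal response element core, searched as TGCACNC and TGCGCNC on both strands.
Mt1: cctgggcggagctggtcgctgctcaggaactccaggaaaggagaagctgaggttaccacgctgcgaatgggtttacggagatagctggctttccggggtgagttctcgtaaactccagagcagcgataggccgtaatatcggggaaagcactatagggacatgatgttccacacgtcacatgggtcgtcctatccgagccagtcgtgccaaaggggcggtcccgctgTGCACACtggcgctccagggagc
Mt2: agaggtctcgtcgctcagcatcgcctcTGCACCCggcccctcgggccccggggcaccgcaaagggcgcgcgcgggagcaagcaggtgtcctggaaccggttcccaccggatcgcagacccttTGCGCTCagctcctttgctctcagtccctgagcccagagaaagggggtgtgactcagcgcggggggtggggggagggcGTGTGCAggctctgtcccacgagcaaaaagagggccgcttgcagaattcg

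The *Mt2* window held 3 cores and the *Mt1* window 1. With the 50 bases after the start included, the counts were 4 and 3. Neither window held a TATAAA string near its end, and the *Mt1* count rises past its RefSeq start. The counts therefore describe windows set by the RefSeq starts and not the whole promoters. Among 32851 RefSeq promoter windows of mouse genes, 21.4% had at least 1 core and 1.26% at least 3 in the 250 bases before the start, and 1.97% had at least 3 in the whole 300 bases. The 250 bases before the starts of *Mt3*, *Ftl1*, *Fth1* and *Prnp* held 0 of these cores. In the whole 300 bases *Mt3* had 1, and *Ftl1*, *Fth1* and *Prnp* still had 0. *Mt4*, outside the set, had 1 in either window. A match is a string of letters and not a measured binding site.

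The ferritin subunits share a different element, the iron responsive element near the start of their transcripts, where iron regulatory proteins block translation when iron is scarce. It is shown because the same element stands in both ferritin transcripts, the subunits whose reads are set against each other below. Capitals mark the hairpin loop in 30 bases of each GENCODE transcript.
Fth1: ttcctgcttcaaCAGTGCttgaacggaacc
Ftl1: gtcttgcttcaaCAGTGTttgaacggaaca

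*Mt1* and *Mt2* are the widely expressed metallothioneins, and both were higher in every WT library than in any Trpm7R/R library. *Mt1* (ENSMUSG00000031765, chromosome 8, 1246 exonic bases) had 69, 31 and 38 exon reads in WT replicates 1, 2 and 3 and 8, 4 and 3 in Trpm7R/R replicates 4, 6 and 8. All of these reads were uniquely mapped. WT replicate 1 was the highest library and the groups did not overlap. *Mt2* (ENSMUSG00000031762, chromosome 8, 588 exonic bases) had 42, 15 and 22 exon reads in WT and 4, 4 and 3 in Trpm7R/R. Of these, 41, 14 and 22 were uniquely mapped in WT, and all were in Trpm7R/R. Again WT replicate 1 was highest, and the lowest WT library of *Mt2* held more reads than the highest Trpm7R/R library.

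Exon-exon reads of the metallothioneins were few. *Mt1* had 8, 4 and 4 of them in WT and 2, 0 and 0 in Trpm7R/R, and *Mt2* had 8, 3 and 1 in WT and 1, 0 and 0 in Trpm7R/R. The summed exon-exon reads of the neighbours were 16, 7 and 5 in WT and 3, 0 and 0 in Trpm7R/R, so spliced reads were seen in only 1 Trpm7R/R library, replicate 4. Intron reads of *Mt2* were 0 in all 6 libraries, and the files count the whole *Mt1* gene as exon, so its unspliced reads cannot be told apart. RPKM values divide exon reads by exon length and by the mapped reads of the library. For *Mt2* the WT mean was 2.41 ± 1.24 RPKM (SD, n = 3 mice), and the Trpm7R/R mean was 0.344 ± 0.0806 RPKM (SD, n = 3 mice). For *Mt1* the WT mean was 1.99 ± 0.840 RPKM (SD, n = 3), and the Trpm7R/R mean was 0.225 ± 0.132 RPKM (SD, n = 3). *Mt1* RPKM was 0.775, 0.975 and 0.815 times that of *Mt2* in WT and 0.944, 0.472 and 0.472 times in Trpm7R/R, ratios that rest on 3 to 8 reads in the latter group. This order depends on the length used, since the files give *Mt1* 1246 exonic bases and its transcript has 549, against 588 and 511 for *Mt2*. Per transcript base *Mt1* was at 1.53, 1.92 and 1.61 times *Mt2* in WT and at 1.86, 0.931 and 0.931 times in Trpm7R/R.

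*Mt3*, known as the metallothionein of the brain, had 0 exon, intron and exon-exon reads in all 6 libraries. With 3 reads as the most that a count of 0 allows, its level was under 0.139 to 0.163 RPKM, depending on the library. *Mt4*, known from stratified epithelia and not a member of the set, also had 0 exon reads in all libraries.

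**Figure D1:**
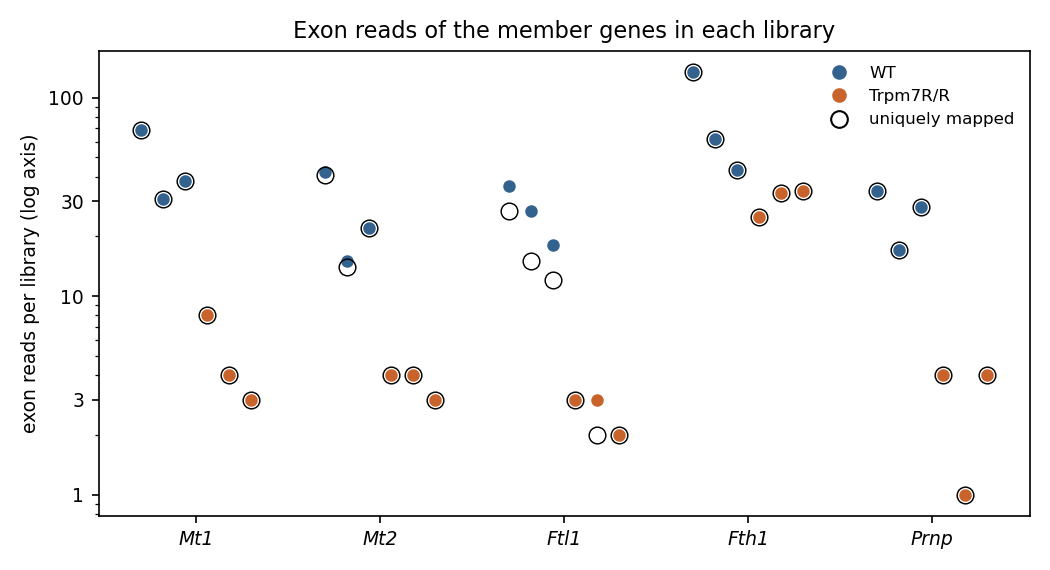
Exon reads per library (log axis) of the 5 members with reads, in WT replicates 1, 2 and 3 (blue) and Trpm7R/R replicates 4, 6 and 8 (orange), with uniquely mapped reads as open circles. Each Trpm7R/R point lies under each WT point of its gene. The gap is wide for *Mt1*, *Mt2*, *Ftl1* and *Prnp* and narrow for *Fth1*, whose lowest WT library had 43 reads and highest Trpm7R/R library 34.

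Both ferritin subunits were lower in every Trpm7R/R library than in any WT library. *Ftl1* (ENSMUSG00000050708, chromosome 7, 1340 exonic bases) had 36, 27 and 18 exon reads in WT and 3, 3 and 2 in Trpm7R/R. *Fth1* (ENSMUSG00000024661, chromosome 19, 3469 exonic bases) had 135, 62 and 43 in WT and 25, 33 and 34 in Trpm7R/R. As counted, Trpm7R/R libraries held at least 25 *Fth1* reads and at most 3 *Ftl1* reads each.

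All exon reads of *Fth1* were uniquely mapped. *Fth1* had 20, 9 and 3 exon-exon reads in WT and 4, 3 and 3 in Trpm7R/R, so on this measure WT replicate 3 lay within the Trpm7R/R range. Its introns had 3, 8 and 5 reads in WT and 2, 1 and 7 in Trpm7R/R, with overlap. Mean *Fth1* was 1.24 ± 0.733 RPKM (SD, n = 3) for WT, against 0.480 ± 0.0605 RPKM (SD, n = 3) for Trpm7R/R. Mean *Ftl1* was 1.09 ± 0.350 RPKM (SD, n = 3) for WT, against 0.110 ± 0.0318 RPKM (SD, n = 3) for Trpm7R/R. The *Fth1* to *Ftl1* ratio of RPKM was 1.45, 0.887 and 0.923 in WT and 3.22, 4.25 and 6.57 in Trpm7R/R. The level of this ratio depends on the exon lengths in the files, 3469 bases for *Fth1* and 1340 for *Ftl1*. Their transcripts have 929 and 968 bases, so the WT values do not show equal RNA of both subunits. As counted, WT libraries held 135, 62 and 43 *Fth1* reads against 36, 27 and 18 *Ftl1* reads. The order of the libraries does not depend on these lengths. Every Trpm7R/R library had a higher heavy to light ratio than every WT library, on 2 or 3 *Ftl1* reads per Trpm7R/R library.

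*Ftl1* shares its sequence with another gene, and this bears on its values. The transcript of *Ftl1-ps1* on chromosome 13 was 99.6% identical to that of *Ftl1* over 910 aligned bases, with an unbroken shared run of 524 bases. By comparison, *Ftl1* and *Fth1* transcripts aligned over 114 bases, at 78.1% identity. Only 27, 15 and 12 of the *Ftl1* exon reads were unique in WT, and 3, 2 and 2 in Trpm7R/R. *Ftl1* had 3, 5 and 7 exon-exon reads in WT and 0, 1 and 0 in Trpm7R/R, of which only 2, both in WT replicate 3, were unique.

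*Ftl1-ps1* had 5, 8 and 4 exon reads in WT and 13, 4 and 5 in Trpm7R/R, and Trpm7R/R replicate 4 was its highest library. Added together, *Ftl1* and *Ftl1-ps1* had 41, 35 and 22 exon reads in WT and 16, 7 and 7 in Trpm7R/R, which still do not overlap. The log2 fold change of Trpm7R/R over WT was -3.23 (SE 0.53) for *Ftl1* and -1.65 (SE 0.45) for the sum, the latter close to -1.33 (SE 0.42) for *Fth1*. The ratio of *Fth1* reads to this sum was 3.29, 1.77 and 1.95 in WT and 1.56, 4.71 and 4.86 in Trpm7R/R, so the heavy to light ratio overlapped between genotypes once the copy was included. The size of the *Ftl1* difference in total reads is uncertain, since the counting could divide reads that are not unique between these genes. Unique exon reads of *Ftl1* were 27, 15 and 12 in WT and 3, 2 and 2 in Trpm7R/R, without overlap. Those of *Ftl1-ps1* were 3, 2 and 2 in WT and 4, 2 and 2 in Trpm7R/R.

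*Prnp* (ENSMUSG00000079037, chromosome 2, 2343 exonic bases) had 34, 17 and 28 exon reads in WT and 4, 1 and 4 in Trpm7R/R, all uniquely mapped. The groups did not overlap, and WT replicate 2 was the lowest WT library. Mean *Prnp* was 0.605 ± 0.190 RPKM (SD, n = 3) for WT, against 0.0692 ± 0.0396 RPKM (SD, n = 3) for Trpm7R/R. No library had an exon-exon read of *Prnp*, whose coding sequence lies in a single exon.

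The files also list *Prn*, a transcript that runs over the *Prnp* region, and *Prnd*, the neighbouring gene of the prion-like protein doppel. *Prnp* introns had 60, 44 and 44 reads in WT and 51, 1 and 51 in Trpm7R/R, 0 of them unique. *Prn* introns had 45, 45 and 45 reads in WT and 74, 70 and 40 in Trpm7R/R. The sum of both was 105, 89 and 89 in WT and 125, 71 and 91 in Trpm7R/R, so the intron reads of the region overlapped between groups.

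The library with a single *Prnp* exon read, Trpm7R/R replicate 6, was also the only one with *Prn* exon reads, 9 of which 1 was unique. *Prnd* had 2, 4 and 10 exon reads in WT and 13, 0 and 3 in Trpm7R/R, 0 of them unique. Summed over *Prnp*, *Prn* and *Prnd*, exon reads were 36, 21 and 38 in WT and 17, 10 and 7 in Trpm7R/R, again without overlap. The log2 fold change was -3.06 (SE 0.55) for *Prnp* alone and -1.43 (SE 0.45) for this sum, and -1.09 (SE 0.70) for *Prnp* when all reads of the gene, introns included, were counted.

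**Figure D2:**
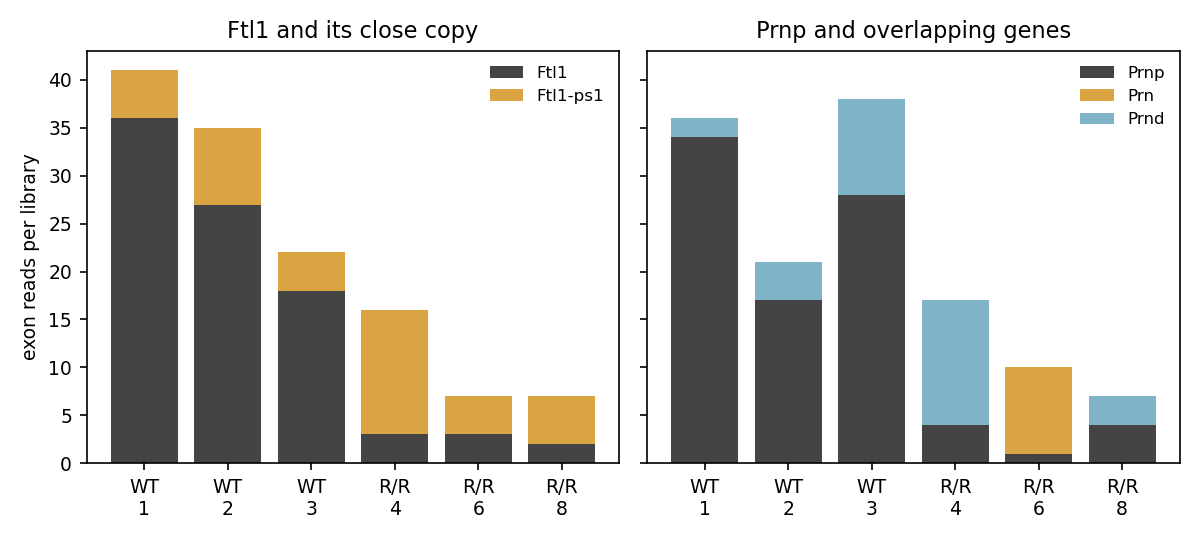
Exon reads per library of *Ftl1* stacked with its near-identical copy *Ftl1-ps1* (left) and of *Prnp* stacked with *Prn* and *Prnd* (right), in 3 WT and 3 Trpm7R/R (R/R) libraries. The dark bars of *Ftl1* and *Prnp* are short in Trpm7R/R where the partner genes hold most of the reads, except for *Prnp* in replicate 8, with 4 of 7. The whole bars stay lower in Trpm7R/R, 16, 7 and 7 against 41, 35 and 22 on the left and 17, 10 and 7 against 36, 21 and 38 on the right.

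To see how far each member stood above the reads that fall anywhere in genes, exon read density was divided by the background of its library. The background is the median intron density of the 5402 genes whose introns add up to 50000 bases or more, and was 3.84 to 5.03 reads per kilobase. *Mt2* exons had 15.7, 5.91 and 8.71 times the background in WT and 1.46, 1.77 and 1.01 times in Trpm7R/R. *Mt1* exons had 12.1, 5.77 and 7.10 times in WT and 1.38, 0.835 and 0.479 times in Trpm7R/R. By the exon lengths in the files, the exact Poisson 95% interval of either metallothionein included the background in each Trpm7R/R library. These intervals cover counting error only. By transcript length *Mt1* was at 3.14, 1.90 and 1.09 times the background in Trpm7R/R replicates 4, 6 and 8. Intervals were not computed on that length, so whether *Mt1* stood above background there was not settled. The background is a median over many genes and need not hold at this locus, since *Mt3* had 0 exon reads in every library where it gives 4.10 to 5.36. In Trpm7R/R replicate 4 the 2 exon-exon reads of *Mt1* and the 1 of *Mt2* came from spliced RNA.

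*Fth1* exons had 8.53, 4.14 and 2.89 times the background in WT and 1.55, 2.47 and 1.95 times in Trpm7R/R, where the lower ends of the intervals were 1.004, 1.70 and 1.35. By the exon length in the files, *Fth1* thus remained above background in every library, narrowly in Trpm7R/R replicate 4. *Ftl1* exons had 5.89, 4.67 and 3.13 times in WT and 0.482, 0.582 and 0.297 times in Trpm7R/R. With the reads of *Ftl1-ps1* added, over the exon length of *Ftl1* alone, it had 6.71, 6.05 and 3.82 times in WT. In Trpm7R/R it then had 2.57, 1.36 and 1.04 times, which no longer lay apart from *Fth1*. Over the exon length of both genes the sum had 3.51, 3.16 and 2.00 times in WT and 1.34, 0.710 and 0.543 times in Trpm7R/R. On that length it was below *Fth1* in each Trpm7R/R library. *Prnp* exons had 3.18, 1.68 and 2.78 times in WT and 0.368, 0.111 and 0.339 times in Trpm7R/R, and in WT replicate 2 the interval began at 0.979. The values of *Prnp* under 1 in Trpm7R/R are lower than the background itself and stand beside the reads that were counted for *Prn* and *Prnd*.

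**Figure D3:**
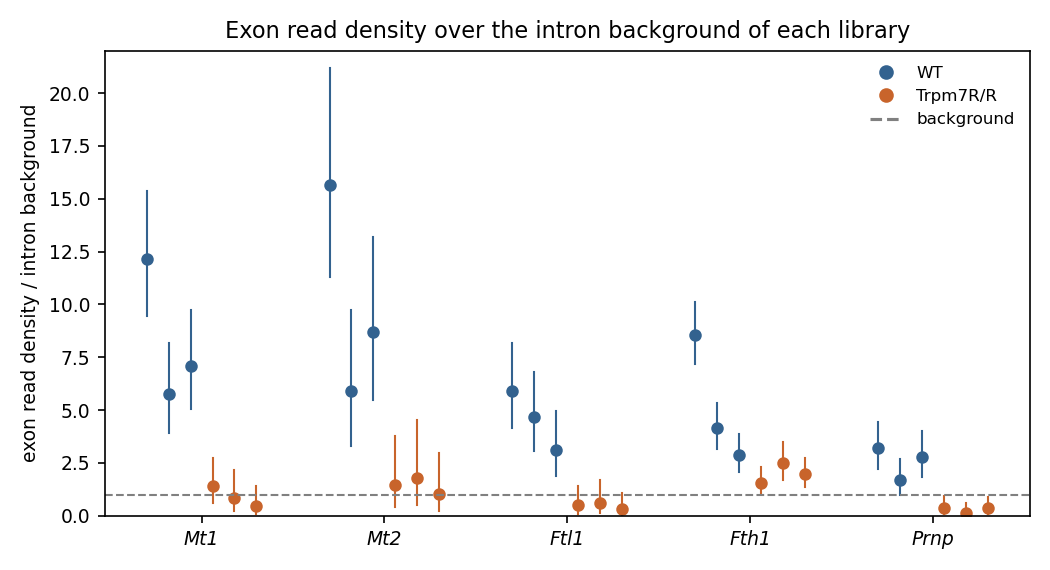
Exon read density of 5 members divided by the intron background of the same library (dashed line at 1), with exact Poisson 95% intervals that cover counting error only, in WT (blue) and Trpm7R/R (orange). WT points lie at 1.68 or higher. By the exon lengths in the files, only *Fth1* keeps all its intervals over the line in Trpm7R/R.

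By mean WT RPKM over 20707 protein-coding autosomal genes, *Mt2* ranked 93, *Mt1* 131, *Fth1* 321, *Ftl1* 421 and *Prnp* 1536. Neighbours in this order differed by less than the larger of their SDs, except *Ftl1* and *Prnp*. In Trpm7R/R the order was *Fth1*, *Mt2*, *Mt1*, *Ftl1* and *Prnp*, with means of 0.480, 0.344, 0.225, 0.110 and 0.0692 RPKM. There the steps from *Mt2* to *Mt1* and from *Mt1* to *Ftl1* were within the larger SD. A set of 72 genes was clearly expressed, with exon density at least 5 times the background and at least 5 times their intron density, and with 1 exon-exon read or more per library on average. *Mt2*, at 5.76 times the background as a mean over all 6 libraries, was the only member among them, and *Mt1* missed the 5-fold line at 4.62 times. By transcript length *Mt1* would be at 10.5 times and *Mt2* at 6.62 times, so the miss and the rank of *Mt1* under *Mt2* rest on the exon length in the files. The files also give *Fth1* 3469 exonic bases and *Ftl1* 1340, where their transcripts have 929 and 968. The ranks and densities of both depend on these lengths too, most of all for *Fth1*, and were not recomputed. Whether *Fth1* would count as clearly expressed by transcript length was therefore not settled here.

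In the fit of edgeR's quasi-likelihood model to total exon reads of all 11674 genes that passed the filter on low counts, with TMM scaling, fold changes are Trpm7R/R over WT. *Mt3* did not pass the filter, and *Mt1*, *Mt2*, *Ftl1* and *Prnp* passed it through WT, where they were high. *Fth1* had more reads than the minimum of 10 in all 6 libraries. As a description of the values that chose the set, log2 fold changes were -3.13 (SE 0.51) for *Mt1*, -2.76 (SE 0.55) for *Mt2* and -1.33 (SE 0.42) for *Fth1*, besides those of *Ftl1* and *Prnp* above. As ratios of summed exon reads per mapped read, WT exceeded Trpm7R/R 9.14-fold for *Mt1* (95% counting interval 5.35 to 16.8) and 7.13-fold for *Mt2* (3.78 to 14.9). The ratio was 10.1 for *Ftl1* (4.87 to 24.1), 8.72 for *Prnp* (4.37 to 19.8) and 2.59 for *Fth1* (2.03 to 3.33).

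All 5 were lower in each Trpm7R/R library than in each WT library after scaling, as were 6.84% of all genes tested, and 3.64% of genes were higher in each. Nothing is read from this count, since the contrast chose the members. *Trpm7*, on chromosome 2, had 97, 65 and 53 exon reads in WT and 35, 76 and 85 in Trpm7R/R (log2 fold change -0.08, SE 0.38), but a point mutation leaves its reads in place, so this checks no label.

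Most clearly expressed genes were low in the Trpm7R/R libraries, and the members are set against them here. Under TMM scaling, which is set by the many genes near background, the median log2 fold change was 0.01 over all genes and -1.59 over the 71 clearly expressed genes outside the set, of which 59 were below WT in every Trpm7R/R library. Those 71 genes lay between -2.61 and 0.28, so *Mt1*, *Mt2*, *Ftl1* and *Prnp* were more negative than any of them, while 54 of the 71 were more negative than *Fth1*. With *Ftl1-ps1* added to *Ftl1*, and *Prn* and *Prnd* to *Prnp*, the sums lay near the median of the 71 genes, at -1.65 and -1.43. Of the members only *Mt1* and *Mt2* then stayed beyond their range. Mean exon density of *Ftl1-ps1* was 1.06 times the background in WT and 1.32 times in Trpm7R/R. That of *Prnd* was 0.383 and 0.352 times, and that of *Prn* 0 and 0.232 times. Adding reads at such levels shrinks a fold change whether or not they came from the members. Nothing is read from the places of the members, since the contrast chose them. The 71 genes also had to average at least 5 times the background over both genotypes, which *Mt1*, *Ftl1*, *Fth1* and *Prnp* did not. Among all 11674 genes tested, *Ftl1*, *Mt1*, *Prnp* and *Mt2* ranked 2, 4, 5 and 9 by most negative log2 fold change. Scaled instead to the 85 ribosomal protein genes, the median of all tested genes shifted to 1.33 and that of the 71 genes to -0.18. *Mt1* was then at -1.89 (SE 0.64), *Mt2* at -1.51 (SE 0.70), *Ftl1* at -1.91 (SE 0.74) and *Prnp* at -1.85 (SE 0.72), and *Fth1* was at 0.01 (SE 0.52).

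Per 10000 spliced reads, *Mt1* had 23.2, 8.76 and 22.4 exon reads in WT and 9.04, 6.52 and 2.89 in Trpm7R/R, and *Mt2* had 14.1, 4.24 and 13.0 in WT and 4.52, 6.52 and 2.89 in Trpm7R/R. WT replicate 2 lay within the Trpm7R/R range for both metallothioneins on this scale. *Ftl1* had 12.1, 7.63 and 10.6 in WT and 3.39, 4.89 and 1.93 in Trpm7R/R, and *Prnp* 11.5, 4.80 and 16.5 in WT and 4.52, 1.63 and 3.85 in Trpm7R/R, without overlap. *Fth1* had 45.5, 17.5 and 25.4 in WT and 28.2, 53.8 and 32.8 in Trpm7R/R, which overlapped. The separation of *Ftl1* and *Prnp* on this scale was lost when *Ftl1-ps1*, or *Prn* and *Prnd*, were added. *Ftl1* with *Ftl1-ps1* had 13.8, 9.89 and 13.0 in WT and 18.1, 11.4 and 6.74 in Trpm7R/R. *Prnp* with *Prn* and *Prnd* had 12.1, 5.93 and 22.4 in WT and 19.2, 16.3 and 6.74 in Trpm7R/R. In Trpm7R/R replicate 4 *Prnd* held 13 of the 17 summed reads, and all exon reads of *Prnp* itself were unique.

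**Figure D4:**
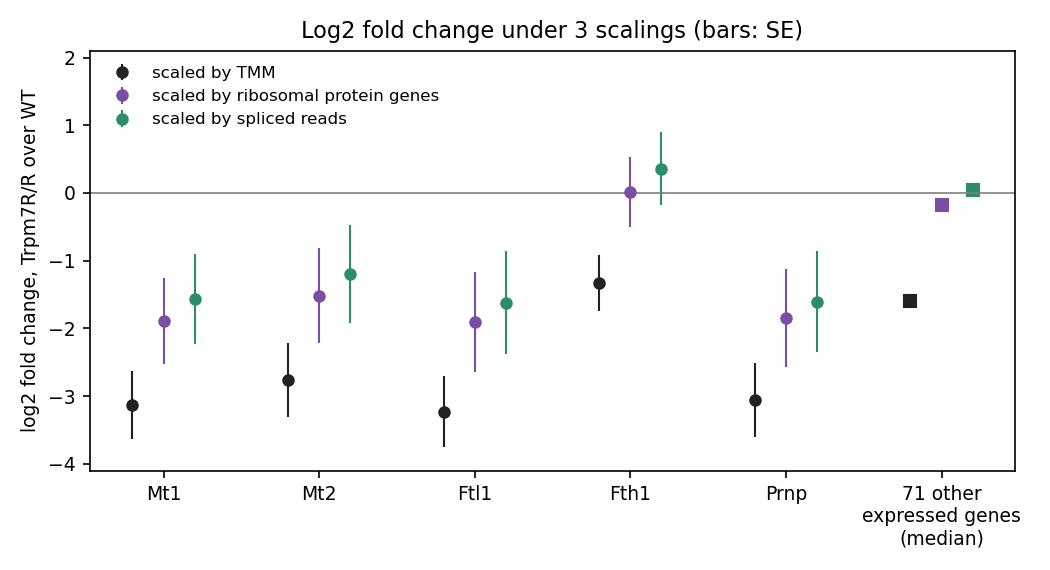
Log2 fold change, Trpm7R/R over WT, with SE bars, of 5 members under TMM scaling (black), scaling by ribosomal protein genes (purple) and scaling by spliced reads (green), with the median of 71 other clearly expressed genes as squares. Counted alone, *Mt1*, *Mt2*, *Ftl1* and *Prnp*, which were chosen by this contrast, lie under the squares at each scaling. Summed with *Ftl1-ps1*, and with *Prn* and *Prnd*, which is not drawn, *Ftl1* is at -1.65 and *Prnp* at -1.43 under TMM scaling. The square is at -1.59, and the added genes average near or under the background. *Fth1* moves from -1.33 to 0.01 and 0.36.

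Replicate 4, the Trpm7R/R library whose Y-linked reads match those of WT, showed the same direction by itself. Against the 3 WT libraries its log2 fold change was -2.55 (SE 0.65) for *Mt1*, -2.73 (SE 0.81) for *Mt2*, -3.16 (SE 0.81) for *Ftl1*, -1.72 (SE 0.55) for *Fth1* and -2.73 (SE 0.77) for *Prnp*, with the lone sample assumed to vary like the rest. Without it they were -3.59 (SE 0.54), -2.79 (SE 0.61), -3.29 (SE 0.59), -1.16 (SE 0.40) and -3.27 (SE 0.62) in the same order. All 5 members were negative with and without the libraries that look female. This sign was largely set in advance, since the members were chosen by the reads of these same libraries. The part of sex in the difference was not tested.

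Across the 6 libraries the members' log2 scaled counts ran together, as a description over points that share libraries, scaling and the genotype difference itself. Pearson's r was 0.98 between *Mt1* and *Mt2* and 0.97 between *Mt1* and *Ftl1*, and lowest between *Fth1* and *Prnp* at 0.74. Outside the set, the genes most like *Mt1* were *Srsf6* (r = 0.992), a splicing factor, *Rps16* (0.990), a ribosomal protein, and *Tapbp* (0.988), which loads peptides onto MHC class I. Those most like *Mt2* were *Cyb5b* (0.993), a mitochondrial cytochrome b5, *H2-K1* (0.988), an MHC class I heavy chain, and *Fkbp9* (0.987), a prolyl isomerase of the ER.

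*Ftl1* was closest to *Copb1* (0.992), a COPI coat subunit, *Rps6* (0.991), a ribosomal protein, and *Atp5c1* (0.990), a subunit of the mitochondrial ATP synthase. *Fth1* was closest to *Olfr1505* (0.995), an olfactory receptor gene on the same chromosome 19 with 0 exon-exon reads, then *Cd47* (0.984) and *Ube2r2* (0.984). *Prnp* was closest to *Rnf130* (0.993), *Taf1d* (0.990) and *Ddx41* (0.987). *Srsf6*, *Tapbp* and *Cyb5b* also had 0 exon-exon reads, with exons at 1.10, 0.736 and 0.593 times the background on average. *Fkbp9* and *Ube2r2* averaged 0.167 exon-exon reads per library. How far these correlations follow the step between the groups was not tested.

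Whether other genes of metal handling differed between genotypes was asked over 69 genes in 6 lists, the zinc exporters and importers, iron and copper handling, the remaining metallothionein genes with their factors, and the prion relatives. Of these, 30 passed the filter on low counts and 0 were clearly expressed. A gene was called where the change was 2-fold or more and the adjusted p was 0.05 or less. EdgeR called 0 of the 30 lower and 0 higher, against 0.0257% and 0% of all genes. DESeq2's Wald test also called 0 lower and 0 higher, against 1.08% and 0% of all genes. At an unadjusted p under 0.05, 1 was lower and 0 were higher, against 4.57% and 1.14% of all genes. Their median log2 fold change was -0.03, beside 0.01 over all genes, with 15 of 30 negative. Only 6 of the 30 had exon density of at least 2 times the background, and 6 averaged 1 or more exon-exon reads, so a difference in the spliced RNA of most of them was not detectable at this depth.

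The gene with the unadjusted p under 0.05 was *Cox17*, the chaperone that brings copper to cytochrome c oxidase. It had 30, 54 and 44 exon reads in WT and 28, 14 and 16 in Trpm7R/R (log2 fold change -1.10, SE 0.39, adjusted p = 0.486 from edgeR), and 16, 17 and 10 exon-exon reads in WT against 5, 3 and 3. The groups did not overlap in either read class. *Commd1*, which takes part in copper export, was at -0.75 (SE 0.37, adjusted p = 0.945 from edgeR). In all, 4 copper genes were tested.

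Among 7 tested zinc exporters, *Slc30a8*, which loads zinc into insulin granules, had 56, 55 and 47 exon reads in WT and 11, 12 and 54 in Trpm7R/R (log2 fold change -1.03, SE 0.49, adjusted p = 0.902 from edgeR). Replicate 8 lay among the WT libraries while replicates 4 and 6 were low. It had 1 exon-exon read in each WT library and 0 in Trpm7R/R. *Slc30a5*, a zinc exporter of the secretory pathway, had 26, 13 and 16 exon reads in WT and 11, 8 and 12 in Trpm7R/R (-0.79, SE 0.45), at 0.440 times the background. Of 6 tested zinc importers, *Slc39a14* was at 0.47 (SE 0.38) and *Slc39a9* at -0.24 (SE 0.32), both with overlap.

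Of 10 tested iron genes, *Heph*, a ferroxidase encoded on the X chromosome, had 28, 20 and 19 exon reads in WT and 8, 68 and 56 in Trpm7R/R (1.05, SE 0.58, adjusted p = 1.00 from edgeR). Its high libraries, replicates 6 and 8, are those that look female. *Slc25a37*, the mitochondrial iron importer, was at -0.39 (SE 0.40). *Mtf1*, the factor that binds metal response elements, had 24, 44 and 42 exon reads in WT and 40, 15 and 23 in Trpm7R/R (-0.46, SE 0.41), and *Mtf2*, a Polycomb protein that shares only part of its name, was at 0.09 (SE 0.47). *Sprn*, which encodes the prion-like protein shadoo, was the single prion relative tested, at -0.43 (SE 0.38).

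**Figure D5:**
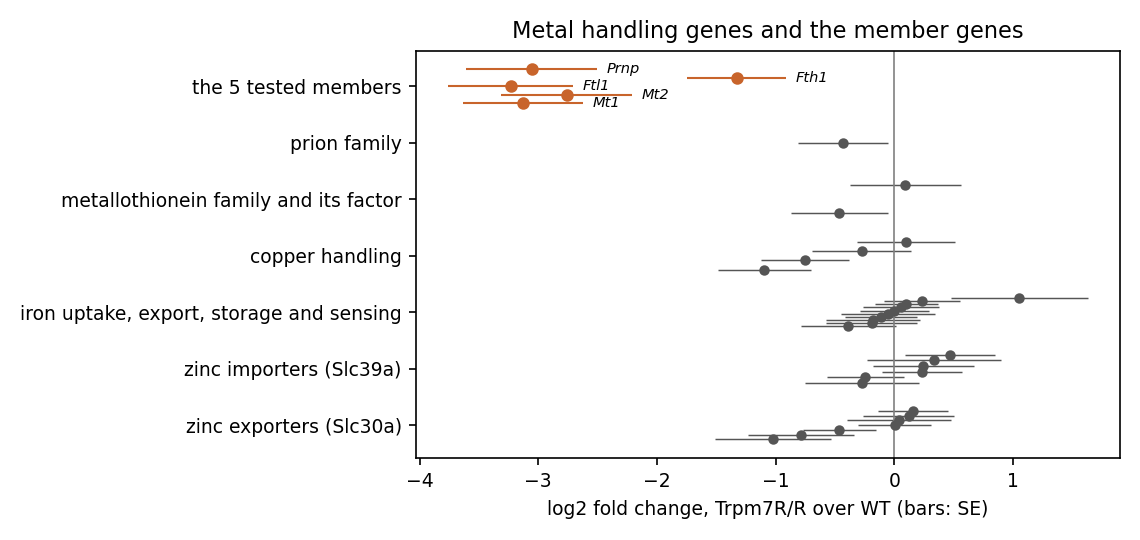
Log2 fold change, Trpm7R/R over WT, under TMM scaling with SE bars, of the 30 tested metal handling genes by list (grey) and of the 5 tested members (orange). The grey genes spread between -1.10 and 1.05 around 0. The members, which were chosen by this contrast, lie between -3.23 and -1.33.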

How the data were processed

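The authors deposited 1 table per library with raw counts of reads per gene (whole gene, exon, intron and exon-exon reads, total and unique), RPKM and TPM. RPKM, as deposited by the authors, is exon reads scaled to exon length and mapped reads, and the mapped reads given here are those it implies. A low-input RNA kit and a NovaSeq instrument were used. The aligner and the counter are named neither in the labels nor in the methods used here. The submitters' processing notes name mm10, yet positions in the files do not match GRCm38, so only chromosomes are taken from them. The authors' own comparison table, with fold changes and p-values, was not used.

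The members and lists were chosen with earlier results of these data known. Total exon reads were analysed with edgeR 4.0.16 in R 4.3.3 (TMM, filterByExpr with a minimum of 10 counts, genotype as the only term, quasi-likelihood test, Benjamini-Hochberg adjustment over 11674 genes). Alternatives used limma 3.58.1 and DESeq2 1.42.0, other scalings, filters, read classes and left-out libraries. Scaling by spliced reads, sums of members with related genes, transcript lengths and the counting intervals were added after seeing the data. Named genes are the members, *Trpm7*, the genes called in each list or else the 2 with the smallest p, and the 3 genes most like each member (prior count 2). Libraries of a genotype differed by 4.47 to 17.2 times sampling noise, so none is a copy. The pipeline was tested on simulated data. Promoters are from RefSeq (GRCm38.p6), in which all 6 members were matched, and transcripts from GENCODE, aligned with Biopython 1.88. Python 3.11.15, pandas 2.3.3, numpy 2.4.6, scipy 1.17.1 and matplotlib 3.10.9 were used.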

Additional observations from a re-analysis of the deposited data

How the results depend on the processing

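The log2 fold change of *Mt1*, *Mt2*, *Ftl1* and *Prnp* was negative under every alternative in which they were tested. It ran from -3.59 to -1.57 for *Mt1*, -2.998 to -1.20 for *Mt2*, -3.43 to -1.62 for *Ftl1* and -3.27 to -1.09 for *Prnp*. Sums of *Ftl1* with *Ftl1-ps1* and of *Prnp* with *Prn* and *Prnd* were fitted under TMM scaling only, at -1.65 and -1.43. Set against spliced reads, both sums overlapped between genotypes, as given above. The direction of both sums was therefore not settled when scaled by spliced reads. In Trpm7R/R replicate 4 the *Prnp* sum was mostly *Prnd*, with 13 of 17 reads, so it need not describe *Prnp*. Leaving out each library gave -1.60 to -0.65 for *Fth1*, which turned to 0.012 when scaled by ribosomal protein genes and 0.36 by spliced reads. Those 2 scalings turned further genes in the same way, *Slc30a8* (0.30 and 0.47), *Slc30a5* (0.49 and 0.77), *Slc39a9* (1.11 and 1.35), *Slc25a37* (0.93 and 1.15), *Cox17* (0.24 and 0.46), *Commd1* (0.52 and 0.75), *Mtf1* (0.84 and 1.04) and *Sprn* (0.88 and 1.10), since they lift all genes. With replicate 4 alone against WT, *Slc39a9* was at 0.044, *Heph* at -1.51, *Slc25a37* at 0.24, *Mtf1* at 0.081, *Mtf2* at -1.30 and *Sprn* at 0.23. *Mtf2* was also at -0.065 with total gene reads, -0.13 with limma-voom and -0.38 without Trpm7R/R replicate 6.

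The 3 genes called lower by edgeR, *Ppy*, *Pyy* and *Hsp90b1*, became 30 with upper quartile scaling, 23 with total exon reads as library size, 8 with ribosomal scaling, 5 with spliced scaling, 131 with all genes of at least 1 read, 33 with a minimum of 20 counts, 104 with DESeq2's Wald test, 161 with edgeR's likelihood ratio test, 8 with replicate 4 alone, 0 with total gene reads and 0 with exon-exon reads, and 0 to 151 when a library was left out. The 0 genes called higher became 7204 with ribosomal scaling, 9222 with spliced scaling, 10 with all genes of at least 1 read, 1 with the likelihood ratio test and 0 to 45 when a library was left out, the most without Trpm7R/R replicate 4. Of the metal handling genes 18 and 23 were called higher under the ribosomal and spliced scalings, 0 to 1 when a library was left out, and 0 were called lower under any alternative run. The cause of the other differences was not tested. No paired analysis was possible because the groups share no replicate numbers. Trpm7R/R libraries hold 1 to 8 exon reads of *Mt1*, *Mt2*, *Ftl1* and *Prnp*, which limits every ratio.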
